A study of Mus musculus with 10 samples.

Results

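The genes described here encode nuclear subunits of respiratory chain complexes I to IV. They were chosen by name: every identifier whose symbol was Nduf with a, b, c, s or v and a number, Sdha to Sdhd, 8 named subunits of complex III and 14 named subunits of complex IV. The rule found 62 of the 26301 identifiers in the count files. Of these, 35 belong to complex I (7 core and 28 accessory), 4 to complex II, 8 to complex III and 15 to complex IV, where Ndufa4 is placed because it is now known as a complex IV subunit despite its name.

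RNA had been extracted from spinal cords of C57BL/6 mice, a common inbred strain, and sequenced at 4 and at 8 weeks of age in both sexes. The libraries numbered 2 from males and 2 from females at 4 weeks, and 3 from males and 3 from females at 8 weeks. No genotype or treatment is named in the labels, and nothing there says that the numbered replicates are separate animals, so the p-values describe the spread of these libraries and may reflect technical variation alone.

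Complexes I and II pass electrons from NADH and succinate to ubiquinone, complex III passes them to cytochrome c, and complex IV, cytochrome c oxidase, passes them to oxygen. Complexes I, III and IV pump protons as they do so, and the gradient drives ATP synthase. Neurons and their long axons depend heavily on this route for ATP. Most subunits are made in every tissue, but some subunits of complex IV come as alternative isoforms, with one form in most tissues and another in heart and skeletal muscle.

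Library totals lay between 8453559 and 11594610 counts. Neuronal Snap25, oligodendrocyte Mbp and a set of 5 Hox genes of the cord's segments were present in all 10 libraries, with Snap25 between 2333 and 2894 CPM (a gene's counts scaled to the library's total) and the Hox genes summing to between 148 and 211 CPM. Markers of tissues outside the cord were present as well and differed between libraries. The 12 skeletal muscle markers summed to between 486 and 1977 CPM in the 4-week libraries and to between 42.5 and 152 CPM in the 8-week libraries, so the ages did not overlap. Adrenal cortex markers reached 105 and 146 CPM in the male 4-week libraries against at most 24.5 CPM elsewhere, and lung markers reached 808 and 92.5 CPM in male 8-week libraries 2 and 3 against at most 7.26 CPM elsewhere. In bulk tissue, fewer cells of a type and less RNA per cell cannot be told apart.

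Most of the chain was expressed at substantial level in the cord. CPM averaged over the 10 libraries were 10 or more for 54 of the 62 genes and 100 or more for 34. To set genes beside each other, CPM were divided by exon length, and on that scale the median was 114 CPM per kb in the complex I core, 96.2 among complex I accessory subunits, 94.6 in complex II, 128 in complex III and 135 in complex IV. The spread was widest in complex IV, from 0.0314 to 783 CPM per kb.

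In the complex I core, Ndufs3, a subunit of the matrix arm, had the lowest level at 33 CPM per kb. Ndufv1, which binds NADH and the flavin where electrons enter, lay at 114. Among accessory subunits Ndufb9, in the membrane arm, was highest at 234 CPM per kb and Ndufb4 lowest at 13.6. In complex II, Sdha, the flavoprotein that oxidises succinate, stood at 202, Sdhb, the iron-sulphur subunit, at 145 and Sdhc, a membrane anchor, at 44.2. In complex III, Uqcrh, the hinge protein that helps cytochrome c dock, was highest at 309, while Uqcrfs1, the Rieske iron-sulphur protein, lay at 129. Cox4i1, a regulatory subunit of complex IV, was the most abundant of all 62 at 783 CPM per kb, followed by Ndufa4, then by Cox6a1 at 412 and Cox6b1 at 326.

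Some members were nearly without counts. Uqcr11, a small complex III subunit, had 0 counts in all 10 libraries, which allows up to 0.031 CPM of assigned reads (a floor of 3 counts over the 10 libraries, for counting error only). Sdhd, the other membrane anchor of complex II, and Cox8a, the general form of a small complex IV subunit, had 2 counts each over all libraries. These 3 genes did not pass the filter on low counts, and the other 59 were tested. Cox7c, another small complex IV subunit, passed with only 137 counts over the 10 libraries.

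Near-identical copies bear on such counts. When the transcripts of the 62 genes were compared with those of all other genes in GENCODE M21, 18 matched another gene over at least 150 bases at 95% identity or more, and for 11 of them a match was a pseudogene. Uqcr11 matched 2 pseudogenes and Cox7c matched Gm10012. Uqcrb matched 3 other genes and Cox7b 2. Cox6c, Ndufa12, Ndufb3, Ndufb4, Ndufb11, Ndufs3, Ndufs5 and Ndufs6 matched copies too. Ndufb9 matched Gm49356 and Uqcr10 matched 4930481A15Rik. The levels of all these genes are therefore uncertain. Sdhd and Cox8a had no such match, and what set their near absence was not tested. The annotation behind the counts is not given, so a count near 0 here does not show that a gene is silent. Gapdh, a glycolysis enzyme that cells in general make in quantity, also had only 1.36 to 2.23 CPM in these files.

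**Figure D1:**
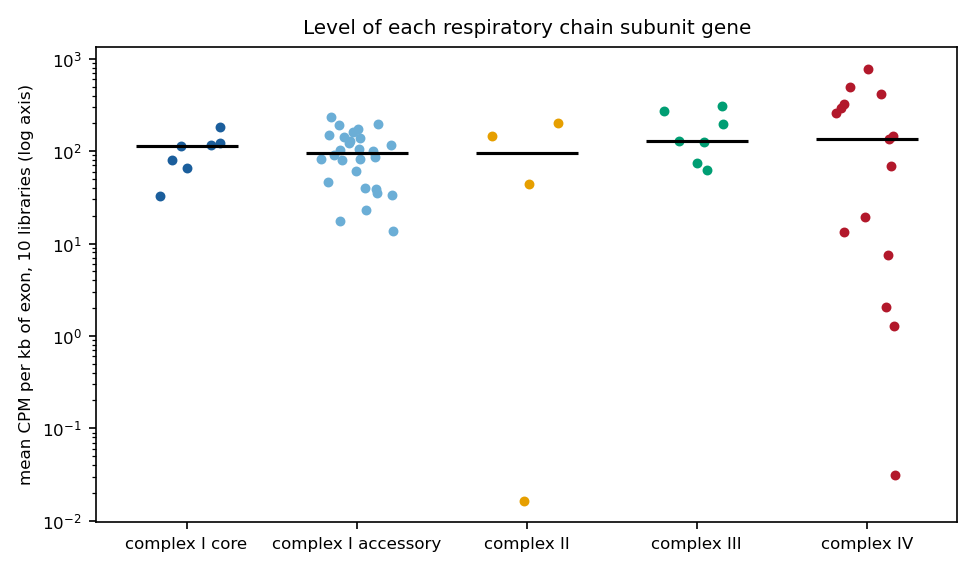
Mean level of each of the 62 respiratory chain subunit genes over 10 libraries, in CPM per kb of exon on a log axis, by complex; each point is a gene and the line is the median of its complex. Most points lie between 10 and 783 CPM per kb, with complex IV spread most widely, and Uqcr11, which had 0 counts, cannot be drawn on a log axis.

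Age was the comparison named in the series' design. Between 4 and 8 weeks, 2 of the 59 tested subunit genes changed and both fell: Cox8b and Cox6a2, the forms of complex IV subunits made in heart and skeletal muscle. Over all 15540 tested genes 6.62% passed the same threshold (edgeR quasi-likelihood F test, adjusted p under 0.05), 5.01% lower and 1.61% higher. No subunit gene rose. The other 57 were not called. Of the 59, 9 had an unadjusted p under 0.05, the 2 fallen genes included, against 3263 of all 15540 tested genes. In DESeq2 3 members were called and in limma-voom 2, where the share over all tested genes is not given here. The 95% interval of the log2 fold change lay within 0.5 of 0 for 54 of the 59, so for these a change of that size lies outside the interval.

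Cox8b is the heart and skeletal muscle form of subunit VIII, a small complex IV subunit. Its levels at 4 weeks were 27.8 and 6.12 CPM in males and 13.5 and 8.68 CPM in females. At 8 weeks they were 3.14, 3.79 and 2.18 CPM in males and 1.34, 2.27 and 1.25 CPM in females. The lowest 4-week library was above the highest 8-week library, and male 4-week 1 stood well above the rest. After TMM scaling (edgeR's correction for library composition) the mean was 14 ± 9.41 CPM (SD, n = 4) at 4 weeks and 2.32 ± 0.982 CPM (SD, n = 6) at 8 weeks. The log2 fold change was −2.59 (SE 0.36, 95% interval −3.36 to −1.82), with an edgeR adjusted p of 0.000524.

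Cox6a2 is the heart and skeletal muscle form of subunit VIa, whose general form is Cox6a1. Its levels were 20 and 5.43 CPM in 4-week males and 7.33 and 8.19 CPM in 4-week females. At 8 weeks they were 1.15, 4.12 and 1.14 CPM in males and 1.75, 1.54 and 0.835 CPM in females. Again the ages did not overlap, male 4-week 1 was highest, and among 8-week libraries male 8-week 2 stood apart upwards. The TMM-scaled mean was 10.2 ± 6.43 CPM (SD, n = 4) at 4 weeks and 1.75 ± 1.19 CPM (SD, n = 6) at 8 weeks. Its log2 fold change was −2.54 (SE 0.38, 95% interval −3.36 to −1.72), with an edgeR adjusted p of 0.00102. Cox8b and Cox6a2 were the only 2 of the 59 (3.39%) whose ages did not overlap with the lower values at 8 weeks, against 4.84% of all tested genes, and none was without overlap in the other direction, against 2.89%.

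Cox7a1, the form of subunit VIIa known from heart, skeletal muscle and brown fat, leaned the same way without passing the test. Levels at 4 weeks were 19.3 and 5.09 CPM in males and 9.82 and 7.2 CPM in females, and at 8 weeks 5.97, 6.79 and 3.22 CPM in males and 5.05, 3.81 and 4.9 CPM in females. Male 4-week 2 lay inside the 8-week range, so the ages overlapped. The log2 fold change was −1.04 (SE 0.30, 95% interval −1.69 to −0.39), with an edgeR adjusted p of 0.0557. The call turned on the setting: the adjusted p was 0.00854 in DESeq2 and 0.131 in limma-voom, and in edgeR it was 0.00206 without male 4-week 2 and 0.265 without male 4-week 1, where the log2 fold change was −0.55.

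The general partners of these isoforms stayed near their 4-week level. Cox6a1 stood at 273, 212, 272 and 214 CPM in the 4-week libraries and at 209 to 254 CPM in the 8-week libraries, with a log2 fold change of −0.09 (SE 0.08, edgeR adjusted p 0.582). Cox7a2 stood at 227, 170, 183 and 151 CPM at 4 weeks and at 152 to 179 CPM at 8 weeks, with −0.15 (SE 0.09, edgeR adjusted p 0.337). For both genes the ages overlapped. As a share of each pair's level per kb of exon, Cox6a2 made up 2.1% to 5.8% of Cox6a2 and Cox6a1 at 4 weeks and 0.334% to 1.4% at 8 weeks. Cox7a1 made up 3.55% to 9.49% of its pair at 4 weeks and 2.54% to 4.53% at 8 weeks. The general form was thus the main one in every library. Cox8b has no such share, because Cox8a was nearly without counts.

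The fourth pair is Cox4i1 and Cox4i2, the latter known from lung and from low oxygen. Cox4i2 made up 0.223% to 0.264% of the pair at 4 weeks and 0.19% to 0.367% at 8 weeks, ranges that overlap. Its log2 fold change of 0.10 was the highest of all 59 members, with a wide error at this depth (SE 0.24, 95% interval −0.41 to 0.61, edgeR adjusted p 0.857). Cox4i1 ranged from 531 to 689 CPM, and its difference with age was −0.06 (SE 0.08, edgeR adjusted p 0.736). Lung markers were highest in male 8-week 2 and 3, where Cox4i2 stood at 1.89 and 1.7 CPM, inside the range of the other libraries.

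**Figure D2:**
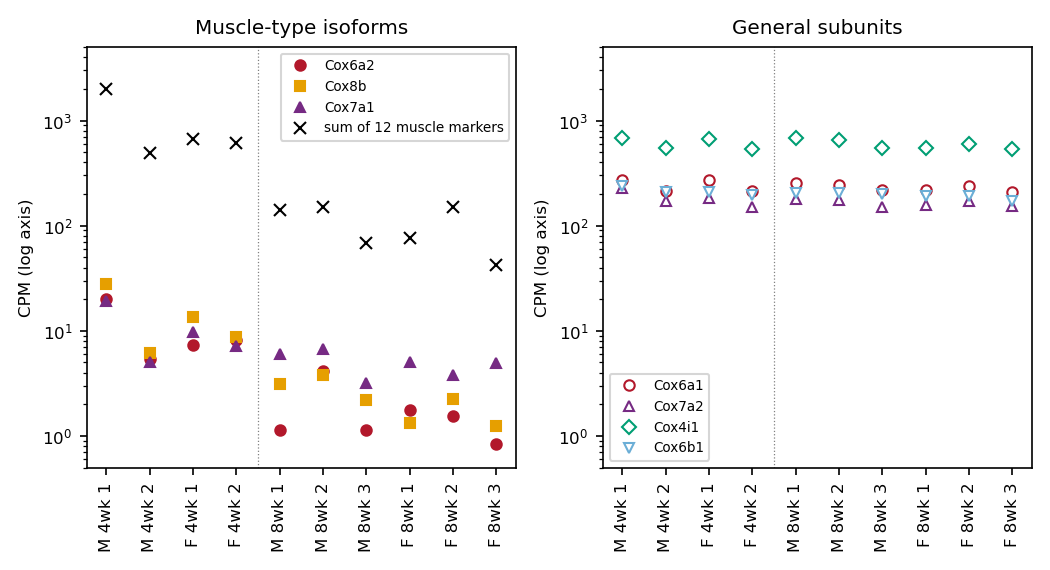
CPM on a log axis in each of the 10 libraries (M male, F female, 4wk and 8wk for weeks; the dotted line divides the ages) for 3 muscle-type complex IV isoforms with the sum of 12 skeletal muscle markers, left, and for 4 general subunits, right. Cox8b and Cox6a2 are higher in all 4-week than in all 8-week libraries, as is the marker sum, while the general subunits stay between 151 and 689 CPM.

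The skeletal muscle markers moved with these genes. All 12 fell with age (edgeR adjusted p under 0.05), at a median log2 fold change of −3.12, and their sum in library order was 1977 and 486 CPM in 4-week males, 672 and 611 CPM in 4-week females, 140, 152 and 68.7 CPM in 8-week males and 76.1, 149 and 42.5 CPM in 8-week females. Acta1, skeletal muscle actin, was at 127 CPM or more at 4 weeks and at 42.3 CPM or less at 8 weeks. Male 4-week 1 was highest for the marker sum as for Cox8b, Cox6a2 and Cox7a1. With the mean centred log2 CPM of the 12 markers as a covariate no member was called, and the log2 fold change was 0.27 (SE 0.48, edgeR adjusted p 0.817) for Cox8b, 0.12 (SE 0.60, edgeR adjusted p 0.944) for Cox6a2 and 1.00 (SE 0.54, edgeR adjusted p 0.352) for Cox7a1. That score lay between 1.12 and 3.13 at 4 weeks and between −2.24 and −0.58 at 8 weeks, so muscle markers and age cannot be told apart in these libraries.

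Brown fat and heart also make muscle-type isoforms of complex IV. Of 5 brown fat markers Ucp1, the uncoupling protein that defines this tissue, stood at 16.8 and 1.64 CPM in 4-week males, at 18.8 and 1.97 CPM in 4-week females and at 1.13 CPM or less at 8 weeks. Both Ucp1 and Cidea fell, which makes 2 of the 4 brown fat markers tested, and the 5 markers summed to between 45.8 and 75.7 CPM at 4 weeks and between 42.4 and 45.9 CPM at 8 weeks. Most of that sum was Kcnk3, a potassium channel also made by neurons, at 34.3 to 39.4 CPM in every library. Markers of all fat fell in 6 of 6 tested genes, and their sum was between 29.8 and 280 CPM at 4 weeks and between 2.62 and 44.6 CPM at 8 weeks. None of 5 tested heart markers changed, and they summed to between 10.5 and 16 CPM over all libraries. Myl7, the atrial myosin light chain, was at or near 0 throughout, at most 0.117 CPM. The part of these tissues in the fall of Cox8b and Cox6a2 was not tested.

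The 250 bases upstream of the start site are given for the muscle-type Cox8b and Cox7a1 beside the general Cox7a2 and Cox6a1. No window of Cox6a2 is printed. Sequences are from RefSeq on GRCm38.p6, which held entries for 50 of the 62 genes, and are written 5′ to 3′ on the gene's strand. Capitals mark a match to a searched motif on either strand: the E-box CAGCTG bound by muscle regulators, the MEF2 motif (CTA and TAG with any 4 bases between), the NRF1 motif (GCGCA and GCGC with any 1 base between), the ETS motif CCGGAAG, whose other strand reads CTTCCGG, and TATAAA. Cox8b lies at chr7:140900447-140900696 on the minus strand, Cox7a1 at chr7:30183921-30184170 on the plus strand, Cox7a2 at chr9:79759854-79760103 on the minus strand and Cox6a1 at chr5:115348959-115349208 on the minus strand.
Cox8b: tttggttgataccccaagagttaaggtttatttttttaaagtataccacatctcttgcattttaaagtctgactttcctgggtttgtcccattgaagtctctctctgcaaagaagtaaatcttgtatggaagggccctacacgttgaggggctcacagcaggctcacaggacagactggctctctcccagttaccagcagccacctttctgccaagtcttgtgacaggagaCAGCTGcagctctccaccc
Cox7a1: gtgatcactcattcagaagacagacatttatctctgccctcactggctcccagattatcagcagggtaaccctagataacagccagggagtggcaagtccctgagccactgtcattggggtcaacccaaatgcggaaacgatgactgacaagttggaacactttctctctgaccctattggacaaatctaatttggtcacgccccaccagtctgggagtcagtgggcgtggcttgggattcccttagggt
Cox7a2: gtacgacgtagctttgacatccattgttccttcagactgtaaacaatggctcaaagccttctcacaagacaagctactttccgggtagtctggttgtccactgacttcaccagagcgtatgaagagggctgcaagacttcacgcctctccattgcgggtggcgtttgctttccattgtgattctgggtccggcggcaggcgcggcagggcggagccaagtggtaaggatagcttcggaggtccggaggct
Cox6a1: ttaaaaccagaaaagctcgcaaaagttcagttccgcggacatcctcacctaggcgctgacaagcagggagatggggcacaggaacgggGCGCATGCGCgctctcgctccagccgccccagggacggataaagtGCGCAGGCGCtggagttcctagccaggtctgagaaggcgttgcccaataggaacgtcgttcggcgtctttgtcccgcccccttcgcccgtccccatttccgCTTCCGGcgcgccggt

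In the upstream window Cox8b held 1 E-box, Cox6a1 held 2 NRF1 motifs and 1 ETS motif, and the other 2 windows held none of the letters searched. GC content was 47.2% for Cox8b, 51.2% for Cox7a1, 54.8% for Cox7a2 and 62.8% for Cox6a1, against a median of 56.4% over the 50 members and 59.6% over 11817 tested genes. The NRF1 motif, named for a factor known to drive respiratory chain genes, was found in 9 of the 50 (18%) against 8.39% of tested genes and 4.23% of all promoters. The ETS motif was in 8 (16%) against 13.9% and 7.83%, the E-box in 5 (10%) against 14.9% and 14.7%, TATAAA in 4 (8%) against 8.09% and 14.3%, and the MEF2 motif in 1 (2%) against 3.38% and 3.7%. A match is a description of the letters and no evidence of binding.

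Complex I, the largest complex, held no called gene for age in 35 tested, and its differences were small. The 7 core genes had a median log2 fold change of −0.02 and ranged from −0.09 to 0.03. Ndufs1, the large iron-sulphur subunit, stood at 210, 178, 184 and 180 CPM in the 4-week libraries and at 173 to 193 CPM in the 8-week libraries. Its log2 fold change was −0.06 (SE 0.05, edgeR adjusted p 0.538), and the ages overlapped.

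The 28 accessory genes ranged from −0.25 to 0.09 around a median of −0.09. Ndufc1, a small membrane-arm subunit, stood at 58.2 and 39.2 CPM in 4-week males, 46.1 and 40.3 CPM in 4-week females and 34.6 to 42.9 CPM at 8 weeks, with a log2 fold change of −0.25 (SE 0.10, edgeR adjusted p 0.168). Male 4-week 1 lay above all others, and male 4-week 2 and female 4-week 2 lay inside the 8-week range. Ndufb9 stood at 215 and 164 CPM in 4-week males, 191 and 148 CPM in 4-week females and 137 to 178 CPM at 8 weeks, with −0.22 (SE 0.09, edgeR adjusted p 0.164). Both passed when male 4-week 2 was left out, at −0.34 for Ndufc1 and −0.28 for Ndufb9. At the other end were Ndufa12 at 0.09 (SE 0.09, edgeR adjusted p 0.622) and Ndufa10 at 0.08 (SE 0.06, edgeR adjusted p 0.481), both accessory subunits.

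Complex II showed no call in 3 tested genes. Sdhb stood at 200, 166, 176 and 158 CPM at 4 weeks and at 146 to 182 CPM at 8 weeks, with a log2 fold change of −0.15 (SE 0.07, edgeR adjusted p 0.22). Sdhc was at −0.07 (SE 0.08, edgeR adjusted p 0.668). Sdha, the catalytic subunit and the most deeply counted of the complex at 552 CPM or more in every library, was at 0.02 with a 95% interval from −0.08 to 0.13. The interval of Sdha was among the narrowest of the members.

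In complex III, 0 of 7 tested genes passed and all 7 estimates were negative, between −0.19 and −0.01, at a median of −0.15. The lowest p-values were those of Uqcrfs1 at −0.18 (SE 0.08, edgeR adjusted p 0.201) and Uqcr10, a small membrane subunit, at −0.19 (SE 0.09, edgeR adjusted p 0.228). Uqcrfs1 stood at 207, 173, 210 and 166 CPM at 4 weeks and at 154 to 189 CPM at 8 weeks. The ages overlapped for both.

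Complex IV held 14 tested genes, of which 2 fell, and its median was −0.15. Beside the muscle-type isoforms, the lowest p belonged to Cox6b1, a subunit on the outer face of the membrane, which stood at 240, 210, 209 and 195 CPM at 4 weeks and at 170 to 206 CPM at 8 weeks. Its difference was −0.15 (SE 0.05, edgeR adjusted p 0.119), and female 4-week 2 lay inside the 8-week range. Cox7c, counted thinly, was at −0.26 with an interval from −0.92 to 0.40, so little can be said of it at this depth.

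**Figure D3:**
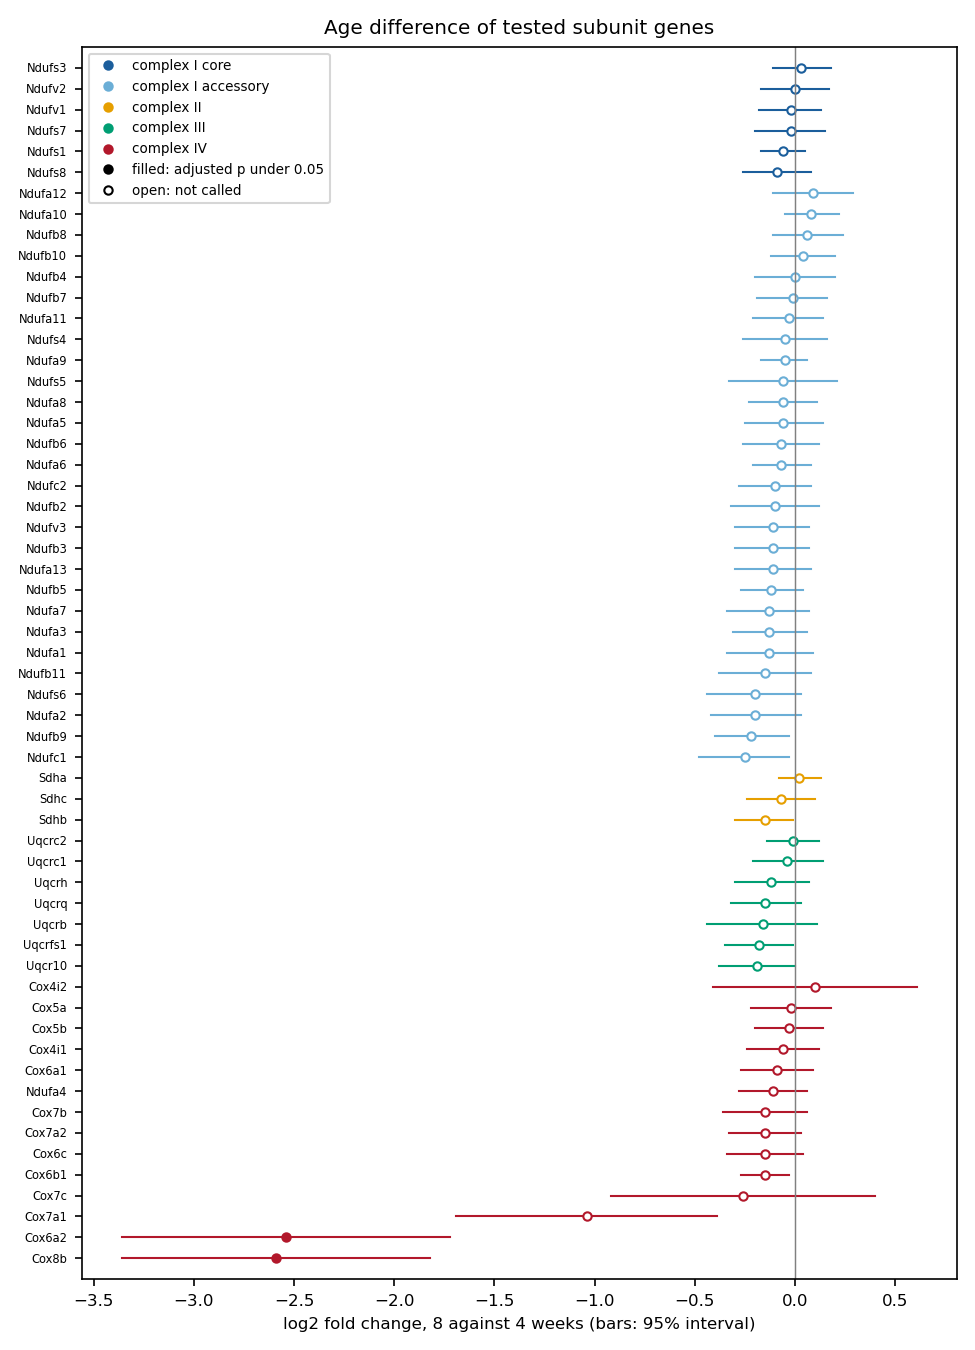
Log2 fold change, 8 against 4 weeks over both sexes, of the tested subunit genes grouped by complex; bars are 95% intervals of the edgeR fit, filled points have an adjusted p under 0.05 and open points do not. Cox8b at −2.59 and Cox6a2 at −2.54 stand apart, Cox7a1 follows at −1.04, and the remaining points lie between −0.26 and 0.10.

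Over the 59 genes the median log2 fold change with age was −0.09, against 0.01 over all tested genes, and 52 estimates were negative. Markers of the cord's own cells also differed with age: 5 of 5 oligodendrocyte markers fell, at a median of −0.55, with Mbp at 30710 to 34186 CPM at 4 weeks and at 21739 to 24466 CPM at 8 weeks. Neuron markers had 8 of 8 estimates above 0 at a median of 0.18, with 1 called, and 0 of 5 astrocyte and 0 of 5 microglia markers were called. Their part in the members' lean was not tested. Library by library, the lean did not follow age. Each gene's log2 CPM was centred on its own mean over the 10 libraries and the median taken over the 59 members. The result was 0.23 and −0.08 in male 4-week 1 and 2, 0.15 and −0.12 in female 4-week 1 and 2, 0.12, 0.06 and −0.11 in male 8-week 1 to 3, and −0.11, −0.01 and −0.16 in female 8-week 1 to 3. Replicates of 1 group thus lay on opposite sides of 0 in both 4-week groups and in 8-week males. Over all tested genes the same median stayed between −0.00 and 0.02. TMM scaling holds the bulk of genes near 0 in every library, so that median is no measure of how unusual the members were.

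The members moved together across libraries. In male 4-week 1 and in female 4-week 1, 57 of the 59 were above their own mean, in male 8-week 1 it was 52 and in male 8-week 2 it was 51. In male 8-week 3 it was 2, in female 8-week 1 it was 3 and in female 8-week 3 it was 1. Of all tested genes, between 49.6% and 53.9% were above their own mean in each library. Male 4-week 1 was the highest library for 33 members (55.9%), against 19.1% of all tested genes. It was the lowest for 0 members, against 22.6% of all tested genes. Female 8-week 3 was the lowest for 23 of the 59, against 11.3% of all tested genes. For 32 of the 59 (54.2%) the 4 highest libraries were male 4-week 1, female 4-week 1, male 8-week 1 and male 8-week 2, in any order, against 4.07% of all tested genes. These 4 libraries were picked after the values were seen, so the count is a description.

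This order was most common in complex I, where 25 of 35 genes (71.4%) had those 4 libraries highest. It was found in 1 of 3 tested genes of complex II, 3 of 7 of complex III and 3 of 14 (21.4%) of complex IV. The medians by complex had a like shape: in male 4-week 1 they lay between 0.12 and 0.27 and in female 8-week 3 between −0.20 and −0.13. Leaving out Cox6a2, Cox7a1 and Cox8b changed little, with a median over the other 56 of 0.22 in male 4-week 1 and −0.15 in female 8-week 3.

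A like order was found outside the chain. In the 15 tested ATP synthase subunits, the enzyme that uses the proton gradient, the medians ran from 0.24 in male 4-week 1 to −0.12 in 3 libraries, female 4-week 2, male 8-week 3 and female 8-week 3, and 10 of the 15 had the same 4 libraries highest. In 65 cytosolic ribosomal protein genes, a list added after the values were seen, they ran from 0.28 in male 4-week 1 to −0.15 in female 8-week 3, with 21 of 65. Citrate cycle enzymes spanned less, from −0.07 to 0.11.

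**Figure D4:**
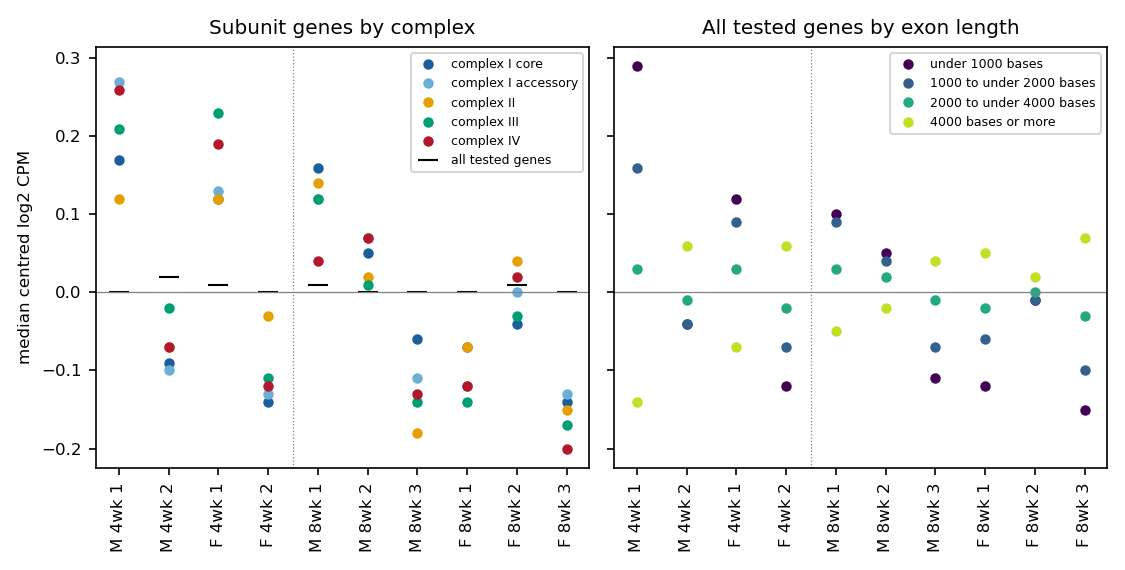
Median centred log2 CPM in each of the 10 libraries for tested subunit genes by complex, left, with bars for all tested genes, and for all tested genes in 4 classes of exon length, right. Complex I core, complex I accessory and complex IV are highest in male 4-week 1, at 0.17, 0.27 and 0.26. Complex II is highest in male 8-week 1 at 0.14 and complex III in female 4-week 1 at 0.23. Genes under 1000 bases are highest in male 4-week 1 at 0.29, and genes of 4000 bases or more run the opposite way.

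Exon length moved with this order. Of the 59 members 32 had under 1000 exonic bases and 20 had from 1000 to under 2000. All 552 tested genes under 1000 bases, most of them outside the chain, had medians of 0.29 and −0.04 in male 4-week 1 and 2, 0.12 and −0.12 in female 4-week 1 and 2, 0.10, 0.05 and −0.11 in male 8-week 1 to 3, and −0.12, −0.01 and −0.15 in female 8-week 1 to 3. The 5745 genes of 4000 bases or more ran the other way, from −0.14 in male 4-week 1 to 0.07 in female 8-week 3. The 6 members of 2000 to under 4000 bases had medians of 0.14 in male 4-week 1 and −0.09 in female 8-week 3. Their lowest median was −0.12, in male 4-week 2. All tested genes of that length had 0.03 in male 4-week 1 and −0.03 in female 8-week 3, smaller but in the same direction. The 1 member of 4000 bases or more, Ndufb2, stood at 0.40 in male 4-week 1 and −0.21 in female 8-week 3. These were opposite in sign to the −0.14 and 0.07 of its length class. How much of the order goes with length was not tested.

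A correction for exon length was then added, chosen after these values were seen: in each library, a smooth curve of centred log2 CPM on log2 exon length was subtracted, and the fits were repeated with it as an offset. The members' median by library then lay between −0.06 and 0.04. The median age difference went from −0.09 to −0.01, and the estimates above 0 from 7 to 26 of 59. Cox8b and Cox6a2 kept their calls, at −2.39 (edgeR adjusted p 5.73e-05) and −2.41 (edgeR adjusted p 0.000242), and Cox7a1 passed at −0.89 (edgeR adjusted p 0.0267).

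**Figure D5:**
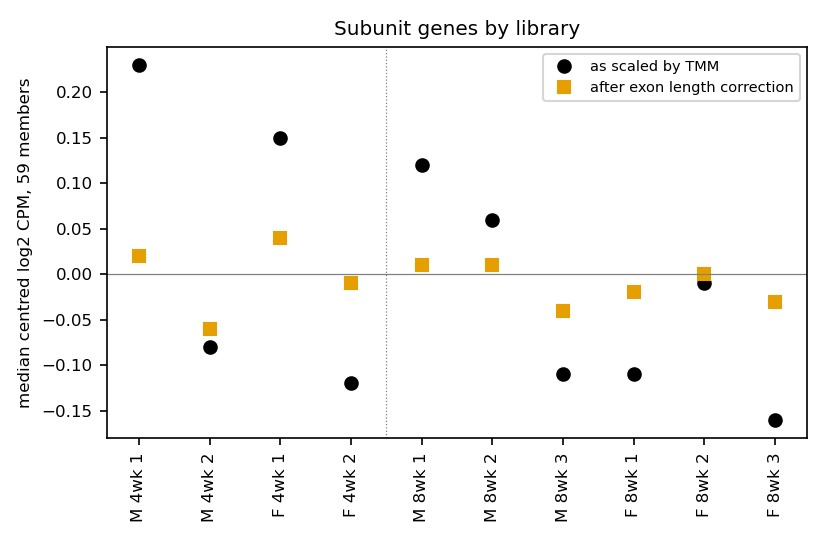
Median centred log2 CPM of the 59 tested subunit genes in each of the 10 libraries, as scaled by TMM (circles) and after the exon length correction (squares). The medians span −0.16 to 0.23 before and −0.06 to 0.04 after the correction.

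Within males, 2 members fell with age, Cox8b at −2.46 (SE 0.50, edgeR adjusted p 0.0225) and Cox6a2 at −2.57 (SE 0.55, edgeR adjusted p 0.0258), beside 3.22% of all tested genes called and 2.39% lower. The TMM-scaled level of Cox8b in males was 16.8 ± 15 CPM (SD, n = 2) at 4 weeks and 3.01 ± 0.806 CPM (SD, n = 3) at 8 weeks. The spread at 4 weeks came from male 4-week 1 and 2, at 27.8 and 6.12 CPM. Without male 4-week 1 neither passed, at −1.04 for Cox8b and −1.40 for Cox6a2. Neither passed without male 8-week 1 or male 8-week 3, but the differences stayed about as large, at −2.49 and −2.25 for Cox8b and −2.28 and −2.25 for Cox6a2. Without male 8-week 2, Cox8b did not pass, at −2.64 (edgeR adjusted p 0.0679), while Cox6a2 passed at −3.43. Without female 8-week 1, Cox6a2 did not pass, at −2.57 (edgeR adjusted p 0.0502), while Cox8b passed at −2.46. Without male 4-week 2, Cox8b was at −3.19 and Cox6a2 at −3.24. In that fit Cox7a1 was at −1.86, Uqcrb at −0.58, Ndufc1 at −0.56, Cox7b at −0.52, Ndufb11 at −0.51 and Cox7a2 at −0.41. With a block for the replicate number only Cox8b passed, at −2.12, and in limma-voom neither passed. With the exon length correction Cox8b and Cox6a2 passed and so did Ndufb10, a complex I accessory subunit, which was higher at 8 weeks by 0.23 against 0.12 (SE 0.10, edgeR adjusted p 0.624) without the correction.

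Within females, Cox8b fell, at −2.77 (SE 0.57, edgeR adjusted p 0.0359), with 11.2 ± 3.46 CPM (SD, n = 2) at 4 weeks and 1.63 ± 0.583 CPM (SD, n = 3) at 8 weeks, beside 1.45% of all tested genes called and 1.22% lower. Cox6a2 was at −2.50 (SE 0.61, edgeR adjusted p 0.0753). The female libraries of Cox6a2 stood at 7.33 and 8.19 CPM at 4 weeks and at 0.835 to 1.75 CPM at 8 weeks. Cox7a1 was at −1.17 (SE 0.44, edgeR adjusted p 0.19) in males and −0.90 (SE 0.46, edgeR adjusted p 0.482) in females. In limma-voom no member passed in females, and none passed when any 1 of female 8-week 1 to 3 and male 8-week 1 and 2 was left out. The share over all tested genes in these fits is not given here, so this is no result about the members. With any 1 of these libraries or of female 4-week 1 and 2 left out, the difference of Cox8b stayed about as large, between −3.10 and −2.42.

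The difference between the sexes' age effects was tested as an interaction. It called 0 of the 59 members in edgeR, DESeq2 and limma-voom, beside 0.0129% of all tested genes in edgeR. Of the 59, 0 had an unadjusted p under 0.05, against 749 of all 15540 tested genes. For Cox6a2 the interaction was −0.07 (SE 0.91, 95% interval −2.05 to 1.90) and for Cox8b 0.31 (SE 0.79, 95% interval −1.41 to 2.04). These intervals are wide, so a sizeable difference between the sexes cannot be told from none.

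Between males and females over both ages, 0 of the 59 members were called in edgeR, DESeq2 or limma-voom, beside 0.0901% of all tested genes in edgeR. Of the 59, 1 had an unadjusted p under 0.05, against 1143 of all 15540 tested genes. The 1 member was Cox6b1, higher in males by 0.13 on the log2 scale (SE 0.05, edgeR adjusted p 0.652). The estimates were above 0, meaning higher in males, for 55 of the 59, at a median of 0.10 against 0.00 over all tested genes. After the exon length correction the median was 0.00 and 30 of 59 were above 0. Of the 4 libraries that were jointly highest for 32 members, 3 are male.

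Sex at 4 weeks called 0 members in edgeR, DESeq2 and limma-voom, beside 0.0708% of all tested genes in edgeR. An unadjusted p under 0.05 was found for 2 members, against 1143 of all 15540 tested genes. When male 4-week 2 was left out, Cox7b, a small complex IV subunit, passed at 0.59. Sex at 8 weeks also called 0 in these 3 tools, beside 0.045%. An unadjusted p under 0.05 was found for 1 member, against 751 of all 15540 tested genes. At 8 weeks 57 of 59 estimates were above 0 at a median of 0.11, which the length correction brought to 34 and 0.01.

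The mitochondrial genome encodes further subunits of complexes I, III and IV and 2 of ATP synthase, and its transcripts moved differently. Of 13 such genes 10 were tested, 1 rose and none fell with age, and 9 of the 10 estimates were positive at a median of 0.12. Some were thinly counted: ND3, COX2 and ATP6 were at 5.52 CPM or less in every library. COX3 was at 32.7 CPM in male 4-week 2 and 45 CPM in male 8-week 2, and at 2.93 CPM or less elsewhere. Estimates of such genes among the 10 are uncertain. The sexes leaned differently: the median was 0.01 in males, with 5 estimates above 0 and 0 called, and 0.24 in females, with 8 above 0 and 1 called. The interaction called 0 of the 10 in edgeR, with 5 at an unadjusted p under 0.05, against 749 of all 15540 tested genes. ND2, a proton-pumping subunit of complex I, stood at 4548, 4114, 3825 and 3584 CPM in the 4-week libraries and at 4559 to 5095 CPM in the 8-week libraries. All 8-week libraries were above all 4-week ones, and the log2 fold change was 0.29 (SE 0.06, edgeR adjusted p 0.0119). ND5, another pumping subunit, was at 0.26 (SE 0.08, edgeR adjusted p 0.0719). Over the 7 of these genes above 1000 CPM the library medians were 0.07 in male 4-week 1 and −0.14 in female 4-week 1, both high for the nuclear subunits, and 0.12 in female 8-week 1, which was low for them. This comparison of patterns is a description with no test.

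The proteins that build and supply the chain showed few calls. Assembly factors of complex I had 0 of 16 called at a median of −0.00, with the lowest p-values in Foxred1 at −0.19 (SE 0.08, edgeR adjusted p 0.118) and Dmac1 at −0.16 (edgeR adjusted p 0.208). Those of complexes II to IV had 0 of 30 at a median of −0.05, led by Cox19 at −0.22 (edgeR adjusted p 0.187) and Cmc2 at 0.18 (edgeR adjusted p 0.211). Other proteins of the chain outside the naming rule, such as the supercomplex factor Cox7a2l at −0.07 (edgeR adjusted p 0.711) and Cox6b2 at −0.16 (edgeR adjusted p 0.724), had 0 of 6 at a median of −0.06.

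ATP synthase subunits had 0 of 15 called at a median of −0.08, with Atp5e at −0.25 (edgeR adjusted p 0.254) and Atp5c1 at −0.13 (edgeR adjusted p 0.27). Citrate cycle enzymes, which supply NADH and succinate, had 0 of 17 at a median of −0.03, with Pdhb at −0.19 (edgeR adjusted p 0.114) and Pdhx at −0.13 (edgeR adjusted p 0.284). Regulators of mitochondrial gene expression had 0 of 19 at a median of −0.02, with Nrf1, the factor named above, at −0.22 (edgeR adjusted p 0.14) and Esrrg at 0.17 (edgeR adjusted p 0.247). Mitochondrial ribosomal proteins had 0 of 74 at a median of −0.04, with Mrpl33 at −0.36 (edgeR adjusted p 0.102) and Mrps6 at −0.24 (edgeR adjusted p 0.128).

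Glycolysis enzymes repeated the division seen in complex IV. Of 19 tested, 2 fell and none rose, at a median of 0.03. The 2 were Eno3, the muscle form of enolase, at −2.12 (SE 0.28, edgeR adjusted p 0.000418) and Pgam2, the muscle form of phosphoglycerate mutase, at −2.20 (SE 0.32, edgeR adjusted p 0.000871). Pgam2 stood at 38.3, 10.1, 13.6 and 11.3 CPM in the 4-week libraries and at 1.88 to 5.35 CPM at 8 weeks, and Eno3 at 81.6, 23, 31.8 and 27.2 CPM and at 7.2 to 10.9 CPM. For both, male 4-week 1 was highest and the ages did not overlap, as for Cox8b and Cox6a2.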

How the data were processed

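Per the labels' protocols, RNA was extracted with Trizol and libraries were made by Illumina methods. The deposited values are raw read counts per gene, which the authors made with TopHat2 2.1.0, featureCounts and the mouse build mm9, per the submitters' processing notes. How reads were assigned (options, strand, annotation) is not given in the sources used here. Overlapping genes (Ndufa13 and Tssk6, Ndufb5 and Mrpl47, Ndufb6 and Smim27, Uqcrc2 and Pdzd9, among others) are uncertain.

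Symbols came from RefSeq on GRCm38.p6 by Entrez identifier (24191 of 26301 matched, and identifiers without a symbol took 0.956% of counts or less in each library). Exon lengths came from GENCODE M21, as the union of a gene's exons over its transcripts. Neither is of the files' build, so no coordinates but those of the promoters are printed. Tests used edgeR 4.0.16 in R 4.3.3: TMM (factors 0.985 to 1.02), a low-count filter (minimum count 10, minimum total 15), and quasi-likelihood F tests, two-sided, at 0.05 after Benjamini-Hochberg adjustment over 15540 genes. Age and sex came from an additive model (7 residual degrees of freedom), the other 5 of the 7 comparisons from a model of the 4 groups (6). SE is the absolute log2 fold change over the square root of F. Scripts were tested on simulated data. limma 3.58.1, DESeq2 1.42.0, other scalings and filters, a replicate block, the muscle score and leaving out libraries were alternatives, and the exon length correction was chosen after seeing the data.

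The members, lists and tests were chosen with earlier results of these data known. Members named with statistics were those called in any comparison, the 3 highest and 3 lowest for age, the 2 lowest p-values for age in each complex (complex I core and accessory apart), the isoform pairs and those below the filter, with the 2 lowest p-values of each other list. For 1 gene that the rule named, single values are not reported here. Others are named for their level, a gene copy or a call under an alternative. Replicates differed beyond counting noise (chi-square over degrees of freedom 1.92 to 11.2), so none was taken for a library deposited in duplicate. This does not show that they are separate animals. At these depths 1 CPM is about 10 counts.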

Additional observations from a re-analysis of the deposited data

Results flagged for a closer look

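Cox6a2 in male 8-week 2 stood at 4.12 CPM, while the other 5 libraries at 8 weeks lay between 0.835 and 1.75 CPM. Its gap to the nearest library was 0.72 of the whole range of the 6 libraries, which is past the limit for a sample far from its group. Of 34 groups of values tested in this way this was 1, and chance flags about 1 in 20. Without male 8-week 2 the log2 fold change of Cox6a2 with age over both sexes was −2.91 (edgeR adjusted p 0.000734).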

How the results depend on the processing

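Over both sexes Cox8b and Cox6a2 kept their direction and call for age under every alternative but the muscle score, which left 0 members called (the median over members moved from −0.09 to 0.35). That score also turned Cox6a2 (0.12), Cox8b (0.27), Cox7a1 (1.00), Ndufb9 (0.31), Ndufc1 (0.42), Ndufs1 (0.18), Sdhb (0.21), Sdhc (0.38), Uqcrfs1 (0.17), Uqcr10 (0.30), Cox4i1 (0.42), Cox6a1 (0.39), Cox7a2 (0.39), Cox19 (0.18), Atp5e (0.60), Atp5c1 (0.18), Cox7a2l (0.54), Cox6b2 (0.75), Pdhb (0.12), Pdhx (0.14), Esrrg (−0.18), Eno3 (0.27), Pgam2 (0.54), Mrpl33 (0.32) and Mrps6 (0.18). The median SE of members rose from 0.09 to 0.16 with it. Leaving out 1 library at a time gave 2 to 5 members called for age over both sexes, 0 to 8 in males, 0 to 2 in females and 0 to 1 for sex at 4 weeks, and a median of −0.15 to −0.02; where this left a group with 1 library, that library is assumed to vary like the other groups. For age in males, 0 passed in limma-voom and 0 without male 8-week 2 and 3. For age in females, 0 passed in limma-voom and 0 without male 8-week 2 and 3, but 2 passed with no low-count filter, 2 without both male 4-week libraries and 2 with the length correction. The directions of small differences turned without both male 4-week libraries (Ndufa10 −0.01), when 1 library was left out (Cox7a2l −0.17 to 0.02, Cox6b2 −0.34 to 0.06 and Cox7a1 in males −1.86 to 0.03, all highest without male 4-week 1, Cox4i1 −0.13 to 0.02, highest without female 4-week 1, and Cox4i2 −0.03 to 0.19, lowest without female 8-week 1) and with the length correction (Cox4i1 0.03, Cox6a1 0.03). The cause was not tested. Counts of members called under an alternative are given without the share of all tested genes in the same fit. They are therefore no result about the members.

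Whether the replicate numbers pair the samples could not be told. Correlations of same-numbered libraries' deviations from their group means ran from −0.21 to 0.24. In a group of 2 libraries these deviations mirror each other, so the correlations are not free to differ. Between the sexes within an age, same-numbered libraries were at 0.21 at 4 weeks and at −0.06, 0.04 and 0.24 at 8 weeks. Those with other numbers were at −0.21 at 4 weeks and between −0.25 and 0.18 at 8 weeks. A replicate block left 2 members called for age over both sexes, with Cox6a2 at −2.21 and Cox8b at −2.32, 1 in males and 1 in females. It turned Sdhc (0.01) and Cox4i1 (0.01), and the members' median was −0.03. At under 10 CPM, 8 members were too thinly counted for small differences to be seen.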
